A study of Mus musculus with 2 samples.

Results

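The hedgehog pathway genes described here are 9: the transcription factors Gli1, Gli2 and Gli3, the receptor Ptch1, the signal transducer Smo, the decoy receptor Hhip and the co-receptors Boc, Cdon and Gas1. They were found by exact gene symbol among the 24646 symbols of the deposited comparison table. Each of the 9 stood on 1 row, so no choice between probe sets was needed. The study compared stromal cells of the mouse mammary gland from 10-week-old littermates. The control sample came from Gli2WT mice and the other sample from Gli2∆S mice, in which Gli2 was ablated in the stroma. Cells of both samples carried Fsp1Cre, a Cre recombinase driven by the promoter of Fsp1 (S100a4), and the Rosa26mTmG reporter, and were sorted for the green fluorescence that Cre switches on. There was 1 array for each genotype, so no difference below has a replicate check, an error or a test. The sources used here do not give the sex of the mice, the deleted part of Gli2, or whether cells of several mice were pooled.

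Hedgehog ligands bind Ptch1, which without ligand holds Smo inactive. Active Smo acts through the primary cilium to turn Gli2 and Gli3 into activators and to reduce the repressor form of Gli3. Gli1, Ptch1 and Hhip are themselves induced by the pathway in many tissues, and in the mammary gland the receiving cells are mainly stromal. RNA of Gli1, Ptch1 and Hhip is therefore commonly read as a measure of pathway output, while Smo and the co-receptors set how well a cell can receive the signal.

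The identity of the sorted cells was checked against marker genes. Signals are log2 bi-weight averages, pairs of signals are given with the control first, and every difference is ablated minus control. Over all clusters the control signals spanned 1.94 to 13.6 and the ablated signals 1.73 to 13.59. S100a4, whose promoter drives the Cre, had signals of 8.16 and 7.98. A signal filter was set at 6.445, the median over all named genes of the brighter signal of each, and a gene passed if either sample reached it. The filter was passed by 14 of 15 fibroblast markers, among them Dcn (decorin, 12.51 and 12.01) and Dpt (dermatopontin, 11.65 and 10.57). It was also passed by 12 of 12 T and NK cell markers (Il7r 11.93 and 12.15, Cd3e 11.09 and 11.43), 6 of 6 B cell markers (Cd79a 11.51 and 11.53) and 9 of 9 macrophage markers (C1qb 10.36 and 10.03). All 8 endothelial markers passed (Pecam1 10.29 and 10.21), although Cldn5 and Tek, named for their values, did so by their control signals alone. Among luminal epithelial markers 6 of 9 passed (Krt8 10.06 and 10.18), while Elf5, Csn2 and Wap, named for their values, did not. Of smooth muscle and pericyte markers 6 of 7 passed, and of basal epithelial and of adipocyte markers 2 of 7 each. Prrx1 (fibroblast), Aif1 (macrophage) and Des (smooth muscle and pericyte), also named for their values, passed by their control signals alone. The filter is a coarse screen, since an array signal depends on its probes.

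The deposited files do not give the same value for Gli2. The series holds a comparison table with signals to 2 decimals and a series matrix with more decimals, each covering the same 41345 transcript clusters. In 41343 of them the signals of the files agreed within the rounding of the table (0.005). The 2 exceptions were the cluster of Gli2, the ablated gene, and that of Bmp7, a paracrine factor named in the study's design. For Gli2 the control signal was the same in both files (5.94), whereas the ablated signal was 5.32 in the comparison table and 5.72 in the series matrix. The difference of Gli2 was therefore -0.62 (1.54-fold lower) by the comparison table and -0.22 (1.16-fold lower) by the series matrix. For Bmp7 both signals differed between the files, at 7.79 and 7.14 in the comparison table and 7.90 and 7.56 in the series matrix, which made its difference -0.65 or -0.35.

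In the authors' deposited table the signed fold of Gli2, control over ablated, was 1.56. It was the 1 fold of the table that its own 2 signals could not give after rounding, and for Gli2 and Bmp7 alone the series matrix signals did not give the deposited fold. The other 8 members had the same values in both files within rounding. Which file holds the measured Gli2 signal cannot be told from them, and the cause of the disagreement was not tested. Sizes of the Gli2 difference below are given with both values, and counts and plots that use the comparison table alone say so.

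**Figure D1:**
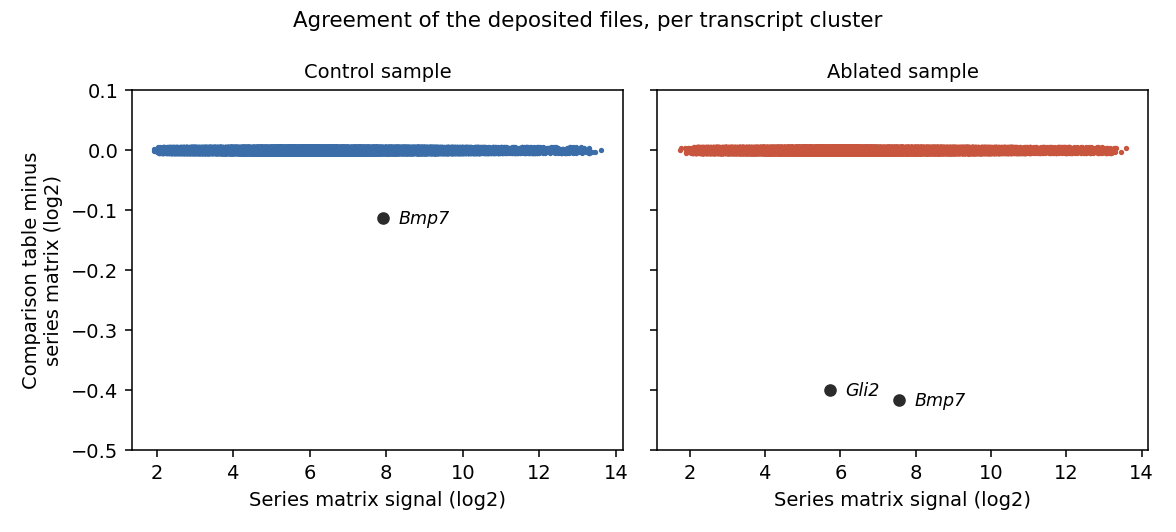
Signal in the comparison table minus signal in the series matrix (log2) for each of the 41345 transcript clusters, against the series matrix signal (log2), in the control sample (left) and the ablated sample (right). All points lie within 0.005 of 0 except Bmp7 in both samples and Gli2 in the ablated sample, drawn in black.

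Among the 9 genes, 7 had the lower signal after ablation and 2 the higher, and 0 were 2-fold apart. The median difference was -0.15 with Gli2 from either file. Of all 24646 named genes, 47% were lower and 50% higher by any amount, with a median of 0, while 0.933% were lower and 0.304% higher by at least 2-fold. The table holds no detection calls, so the signal filter of 6.445 was used in their place. It was passed by 6 members, 5 of them lower and 1 higher (median -0.145), beside 44.8% lower, 53% higher and a median of 0.02 over the 12323 named genes that passed. Gli1, Gli2 and Hhip stayed below it in both samples, where the table does not show whether a signal exceeds background. Boc and Gli3 passed through their control signals alone and so could only be lower, which limits the comparison of these counts with all genes passing.

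With 1 array for each genotype, the size of a difference can be set beside that of genes with a like signal on the same arrays. The named genes were divided by mean signal into 20 bins of 1232 or 1233 genes, and the spread of a bin is the scaled median absolute deviation of its differences. The spread ran from 0.15 to 0.30 over the bins. It describes how genes scatter on these 2 arrays and is not an error between animals.

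**Figure D2:**
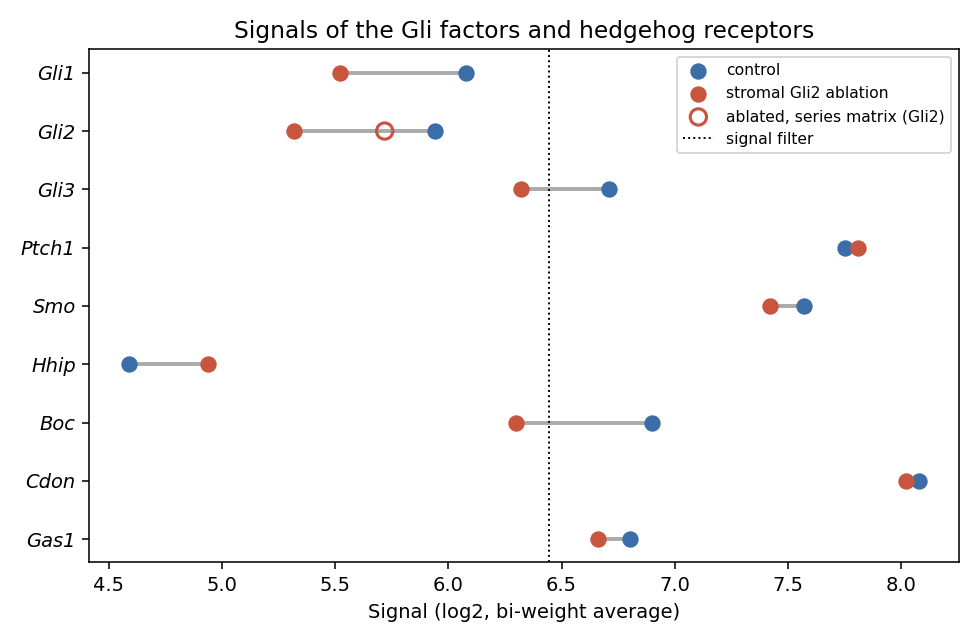
Log2 signals of the 9 genes in the control sample (blue) and the ablated sample (red), with 1 array each, and the signal filter of 6.445 as a dotted line. By the comparison table Boc and the 3 Gli genes have the widest gaps, all with the control higher; the open circle marks Gli2 in the ablated sample by the series matrix (5.72).

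The 3 Gli transcription factors were all lower in the ablated sample, as were 47% of all named genes by any amount. Both signals of Gli1 and of Gli2 were below the filter, and Gli3 passed by its control signal alone. Gli1, an activator whose transcription is itself switched on by the pathway, had signals of 6.08 and 5.52. Its difference of -0.56 (1.47-fold lower) lay 2.38 spreads below the median of its bin, where 2.35% of genes were as low. Gli2, the main activator of the pathway in many tissues, lay 2.61 spreads below its bin median by the comparison table, with 1.46% of genes as low. By the series matrix it lay 0.91 spreads below, with 19.1% of genes as low. By the comparison table the RNA of the ablated gene was thus among the lowest of its bin, and by the series matrix it was within the common scatter.

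Gli3, the member of the family that acts mostly as a repressor, was nearer to its bin. Its signals were 6.71 and 6.32, which gave a difference of -0.39 (1.31-fold lower). That was 1.62 spreads below the bin median, and 9.42% of genes in the bin were as low. The sources used here do not place the array probes within Gli2, and a probe that lies outside the deletion need not show it. Under either file the Gli2 signal therefore does not settle the genotype.

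Of the genes usually induced by the pathway, Gli1 was lower while Ptch1 and Hhip were not. Ptch1, the ligand receptor that inhibits Smo, had signals of 7.75 and 7.81. Its difference of 0.06 lay 0.16 spreads above the bin median, and 44.7% of genes in its bin were as high. Hhip, a membrane protein that binds and sequesters hedgehog ligands, had signals of 4.59 and 4.94. Its difference was 0.35 (1.27-fold higher, 1.31 spreads above the bin median), and 10.7% of genes in its bin were as high. Both signals of Hhip and both signals of Gli1 were below the filter, which only Ptch1 of these genes passed. The 3 response genes thus had differences of -0.56, 0.06 and 0.35, and did not move in 1 direction.

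Smo, the membrane protein that passes the signal from Ptch1 into the cell, differed little between the samples. Its signals were 7.57 and 7.42, a difference of -0.15 (0.74 spreads below the bin median, 24.8% of genes as low).

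The co-receptors, which bind ligand together with Ptch1, did not differ alike. Boc, an immunoglobulin-family membrane protein, had signals of 6.90 and 6.30. Its difference of -0.60 (1.52-fold lower) was 2.65 spreads below the bin median, with 2.84% of genes as low. Cdon, the close relative of Boc with the same role, had 8.08 and 8.02, a difference of -0.06 (0.47 spreads below, 32.9% as low). Gas1, a membrane-anchored co-receptor of another protein family, had 6.80 and 6.66, a difference of -0.14 (0.58 spreads below, 29.8% as low). Of the 3 co-receptors only Boc was beyond the common scatter of its bin, and its ablated signal was below the filter.

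A line at 1.5-fold is mentioned in a legend that the authors deposited inside the comparison table. At least 1.5-fold lower were 2 members, Gli2 and Boc, with the signals of that table, and 1 member, Boc, with those of the series matrix. The same held for 3.3% of all named genes and 4.67% of those passing the filter. At least 1.5-fold higher were 0 of the 9 members, beside 1.72% of all named genes and 1.25% of those passing. Gli1, at 1.47-fold lower, lay just short of the line. More than 2 spreads below their bin medians were Gli1, Gli2 and Boc by the comparison table, and Gli1 and Boc by the series matrix. The share of all named genes more than 2 spreads below their bin medians was not computed, so this count has no background beside it. By the comparison table, the genes as low in the member's own bin were 2.35% for Gli1, 1.46% for Gli2 and 2.84% for Boc. For Gli2 by the series matrix they were 19.1%. Both signals of Gli1 and of Gli2 were below the filter.

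**Figure D3:**
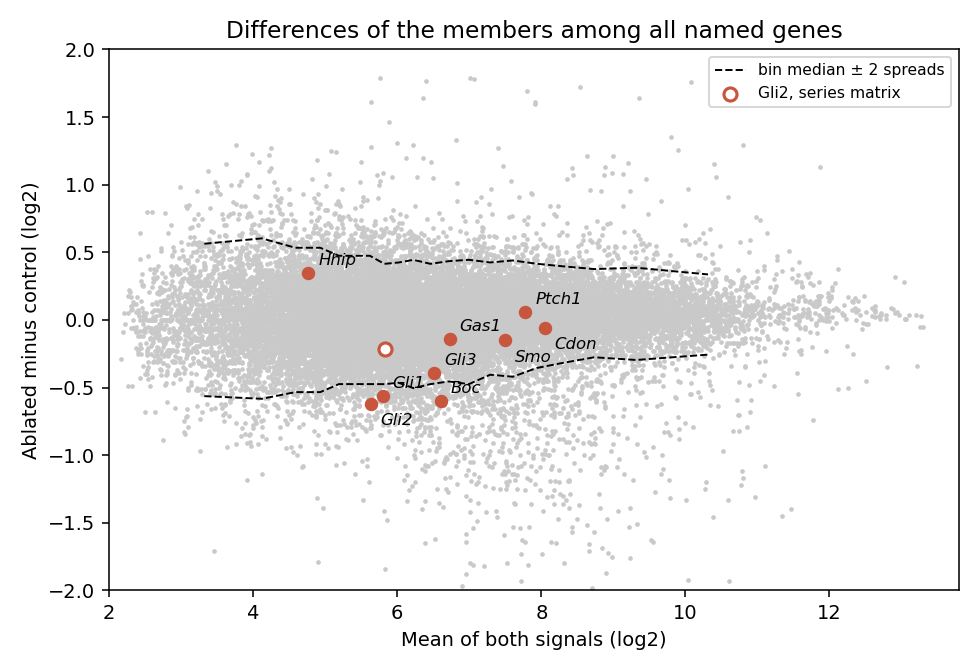
Ablated minus control (log2) against the mean of both signals (log2) for all named genes (grey) and the 9 genes (red); dashed lines are the bin median plus and minus 2 spreads, and 12.0 genes with differences beyond 2 in size lie outside the axis. Gli1, Gli2 and Boc fall below the lower line, and Gli2 by the series matrix (open circle, -0.22) falls inside it.

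The genes whose pair of signals was nearest to that of Gli2 depended on the file. By the comparison table they were S100a16, Figf and Lhx3, at distances of 0.01, 0.022 and 0.04 (Euclidean distance on the log2 scale over the 2 arrays). By the series matrix they were Fndc7, Il19 and Tas2r126, at distances of 0.0082, 0.011 and 0.011. No gene was named by both, and with 2 arrays likeness means only a like brightness and a like difference.

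Promoter windows were looked up to see what the genes share beside their role. RefSeq windows of 300 bases (250 before and 50 after the transcription start, build GRCm38.p6) were found for 7 of the 9 genes, all but Gli1 and Boc. The GC content was 67.3% for Gli2, 71% for Gli3, 76.3% for Ptch1, 73.7% for Hhip, 67.7% for Smo and 62.3% for Gas1, above the median of 52.7% over 32851 windows, while Cdon had 44.7%. The GC box GGGCGG (either strand) was in 5 of the 7 windows, against 35.7% of all windows. The box holds only G and C, and its share among windows of like GC content was not computed. The consensus Gli site GACCACCCA (either strand) was in 0 of the 7, also with 1 mismatch allowed, beside 0.253% of all windows for the exact letters and 6.74% with 1 mismatch. The absence of these letters holds for the windows only. Windows of the ablated gene Gli2, of Gli3 and of Ptch1, the response gene with the smallest difference, are shown, 5′ to 3′ on the gene's strand with GC boxes in capitals. They lie at chr1:119053570-119053869 (minus strand), chr13:15463473-15463772 (plus strand) and chr13:63565686-63565985 (minus strand) and span the start of each gene.
Gli2: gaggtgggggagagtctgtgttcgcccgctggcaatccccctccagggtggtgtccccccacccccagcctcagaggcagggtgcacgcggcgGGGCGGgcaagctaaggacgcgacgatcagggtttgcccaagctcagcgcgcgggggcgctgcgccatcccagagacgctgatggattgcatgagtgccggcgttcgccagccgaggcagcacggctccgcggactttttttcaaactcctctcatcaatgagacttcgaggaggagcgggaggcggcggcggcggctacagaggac
Gli3: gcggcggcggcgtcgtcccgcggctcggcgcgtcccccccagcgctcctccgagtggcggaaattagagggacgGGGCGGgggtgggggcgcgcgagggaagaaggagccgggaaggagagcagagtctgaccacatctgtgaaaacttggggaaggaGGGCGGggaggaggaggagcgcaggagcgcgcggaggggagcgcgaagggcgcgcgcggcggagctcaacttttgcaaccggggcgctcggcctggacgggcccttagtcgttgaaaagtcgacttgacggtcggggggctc
Ptch1: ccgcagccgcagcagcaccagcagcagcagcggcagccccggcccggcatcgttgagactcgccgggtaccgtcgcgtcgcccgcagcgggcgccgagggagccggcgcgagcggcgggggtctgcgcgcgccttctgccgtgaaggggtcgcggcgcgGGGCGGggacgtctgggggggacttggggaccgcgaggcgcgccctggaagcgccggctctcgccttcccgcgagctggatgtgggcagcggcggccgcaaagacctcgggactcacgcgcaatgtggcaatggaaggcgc

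The window of Gli2 held 28 CpG dinucleotides, that of Gli3 held 39 and that of Ptch1 held 47.

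Other hedgehog genes were followed in 6 lists. Of their 82 genes, 50 passed the filter, 26 of them lower, 22 higher and 2 equal, with a median of -0.04. Over all named genes passing, 44.8% were lower and 53% higher, with a median of 0.02. With quantile or loess scaling 31 of the list genes passing were lower and 19 higher. At least 2-fold lower were 4 of the 50, and 0 were at least 2-fold higher, beside 1.73% and 0.373% of all named genes passing the filter. Of these 4, 3 were in the list of reported targets. The lists were chosen with earlier results of these data known, so these counts cannot be read as an excess over all genes. The ligands had differences between -0.29 and -0.07. Shh (sonic hedgehog) had signals of 6.64 and 6.53, Ihh (Indian hedgehog) 7.26 and 7.19, and Dhh (desert hedgehog) 5.86 and 5.57. The difference of Dhh was larger than its bin's spread of 0.24, and both of its signals were below the filter.

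Of the genes for ligand release and surface binding, 4 of 11 passed the filter, 2 lower and 2 higher (median -0.305). The heparan sulfate proteoglycan Gpc6 (glypican 6) had signals of 8.48 and 6.94, a difference of -1.54 (2.91-fold lower). Gpc3 (glypican 3), which binds hedgehog ligands and restrains signalling, had 7.66 and 6.83, a difference of -0.83. Gpc4, which is named here because of its value, stayed below the filter with signals of 6.03 and 4.99 (difference -1.04). Disp1, the transporter that releases ligand from producing cells, was higher by 0.24 (7.01 and 7.25).

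In the cytoplasmic and ciliary lists 0 of 16 and 0 of 15 genes passing the filter were at least 1.5-fold lower. The share over all named genes passing was 4.67%, and with so few genes a count of 0 is near it. Of all named genes passing, 44.8% were lower and 53% higher by any amount (median 0.02). Of 20 cytoplasmic transducers and Gli regulators, 16 passed the filter, 6 lower, 9 higher and 1 equal (median 0.02, from -0.34 to 0.24). With quantile or loess scaling the balance turned to 10 lower and 6 higher. The farthest were Sufu, which holds Gli proteins in the cytoplasm (8.31 and 7.97, difference -0.34), Btrc, a ubiquitin ligase subunit that acts on Gli proteins (0.24), and the ciliary protein gene Evc2 (-0.18). Of 22 genes of the primary cilium, 15 passed, 5 lower, 9 higher and 1 equal (median 0.09). Named for their values, Ift88 (6.54 and 6.40) passed by its control signal alone and Ift27 (6.35 and 6.45) by its ablated signal alone, which fixed their directions. Here the farthest were the kinesin subunit Kif3b (-0.37), the centriolar protein gene Ofd1 (0.33) and the ciliary GTPase Arl13b (-0.29).

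Of 18 genes reported as hedgehog targets in mesenchyme or other tissues, the filter left 11, with 9 lower, 2 higher and a median of -0.23. Among the 9 was Jag2, named for its value (6.45 and 6.40), which passed by its control signal alone and so could only be lower. The list was chosen with earlier results of these data known. At least 2-fold lower were 3. Of all named genes passing, 44.8% were lower and 1.73% at least 2-fold lower. Of the fibroblast markers passing, 14 of 14 were lower (median -1.185), among them Prrx1, which passed by its control signal alone. Igfbp6, an insulin-like growth factor binding protein, had signals of 8.86 and 7.50 (difference -1.36). The secreted WNT antagonist Sfrp1 had 8.23 and 7.05 (-1.18), and the mesenchymal transcription factor Osr1 had 8.26 and 7.18 (-1.08). Of 8 Zic and Glis genes, relatives of the Gli genes, 2 passed the filter, Glis2 (-0.35) and Glis1 (-0.17).

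Fibroblast markers were also lower in the ablated sample. Of 15 markers 14 passed the filter, and all 14 were lower, of which 9 by 2-fold or more, with a range from -1.98 to -0.07 (median -1.185). Among the 9 was Prrx1, named for its value (7.82 and 6.28), which passed by its control signal alone and so could only be lower. The summed linear signal of the 15 in the ablated sample was 55.6% of that in the control sample, and 0 were absent from the table. The summed signal of 12 T and NK cell markers was 119% of the control, with 11 of 12 higher (median 0.235). For scale, the median difference over the 12323 named genes that passed was 0.02. Of those genes 53% were higher and 44.8% lower, and 1.73% were lower by 2-fold or more. The sums of the B cell list (97.7%), the luminal epithelial list (94.8%) and the macrophage list (84.1%) were nearer to the control than those of the endothelial (74.5%), smooth muscle and pericyte (67.6%), basal epithelial (81.3%) and adipocyte (59.1%) lists. The basal and adipocyte lists each had 2 markers passing the filter, Acta2 and Myh11, which the smooth muscle list also holds, and Fabp4 and Car3. In sorted bulk cells, fewer cells of a type and less RNA per cell cannot be told apart. The part of cell composition in the differences of Gli1, Gli2, Gli3 and Boc, and of the glypicans and reported targets, was not tested, and with 1 sample for each genotype it cannot be told apart from that of the genotype.

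**Figure D4:**
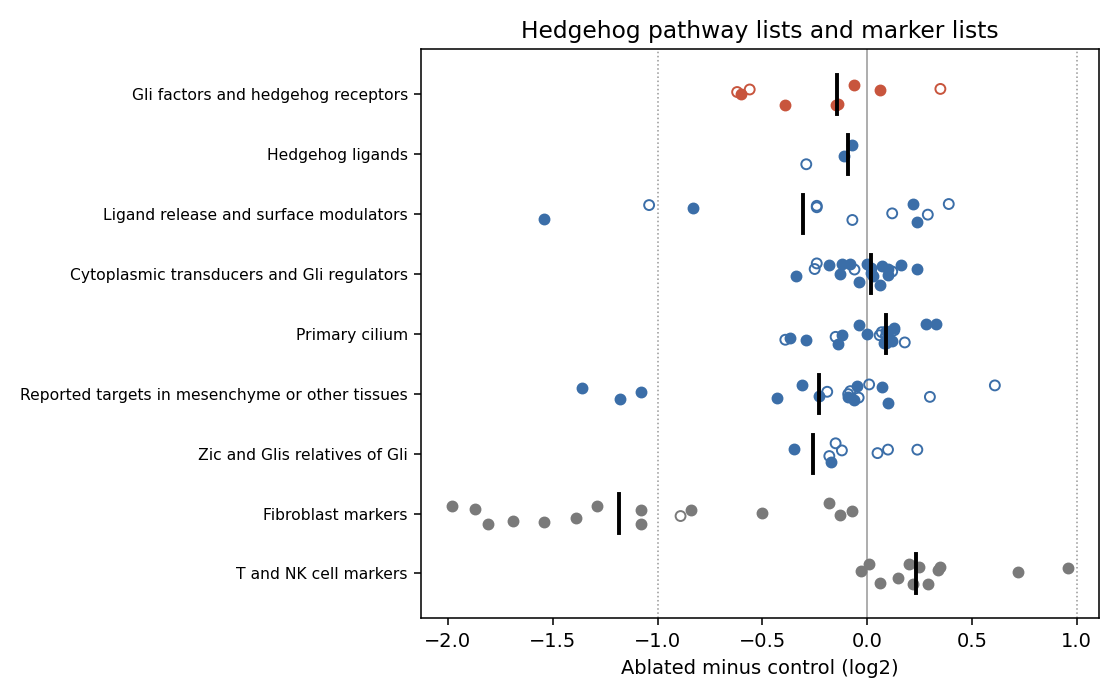
Ablated minus control (log2) for each gene of the 9 (red), the 6 other hedgehog lists (blue) and 2 marker lists (grey), with Gli2 by the comparison table. Filled points pass the signal filter, open points do not, bars are medians of filled points and dotted lines mark 2-fold. The members lie between -0.62 (Gli2, or -0.22 by the series matrix) and 0.35, the fibroblast markers passing the filter between -1.98 and -0.07.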

How the data were processed

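Total RNA of the sorted cells was hybridised to Affymetrix arrays as biotinylated cRNA, per the labels' protocols. The comparison table that the authors deposited holds, per the file headers, bi-weight averages on a log2 scale for every transcript cluster, and a signed linear fold of control over ablated. The deposited series matrix holds log2 signals of the same clusters with more decimals. The submitters' processing notes name Transcriptome Analysis Console without a version. The sources used here do not say which array was used or how its values were background-corrected and normalized. Any shift shared by all genes could have been removed by normalization.

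The comparison table was used as the main source and the series matrix as an alternative. The 27036 clusters with a symbol were reduced to 24646 symbols by keeping the brightest row of each by mean signal. Signals depend on their probes, so signals of different genes are not comparable amounts of RNA. With 1 sample per group no test was made. The number of arrays limits the precision. Members and lists were chosen with earlier results of these data known. Named were all 9 members, the 3 ligands, in each other pathway list the 3 genes with the largest differences and all 2-fold apart among those passing the filter, up to 2 bright genes of each marker list, and the 3 genes nearest to Gli2; others are said to be named for their values. S100a4 was named as the source of the Cre promoter, and Bmp7 for its disagreeing deposited values. A planned comparison of protein sequences was not made. The steps were tested on simulated data. The alternatives were quantile scaling, a loess (span 0.3), the median difference set to 0, the mean over rows, the deposited fold, the series matrix, folds of 1.5 and 3, no filter and a 75th percentile filter. Computations used Python 3.11.15 with statsmodels 0.14.6, pandas 2.3.3 and numpy 2.4.6, and figures matplotlib 3.10.9.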

Additional observations from a re-analysis of the deposited data

How the results depend on the processing

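The difference of Gli2 went from -0.62 to -0.22 with the series matrix in place of the comparison table. No other member moved by as much as its bin's spread under any alternative. Under quantile, loess and median scaling the 9 members moved by at most 0.034 and 0 changed sign. Each member stood on 1 row, so averaging rows changed none of them. The counts of other hedgehog genes passing the filter (26 lower, 22 higher) became 31 and 19 with quantile or loess scaling, 43 and 37 with no signal filter and 11 and 13 with a 75th percentile filter, as a looser or stricter filter tests more or fewer genes. The counts of all named genes at least 2-fold apart (213 lower, 46 higher) depended on the fold by construction, with 575 lower and 154 higher at 1.5-fold, 40 lower and 15 higher at 3-fold, and 75 higher at 2-fold with no signal filter. No paired analysis was possible because each genotype has 1 sample, and for the same reason no replicate could be left out. Signals below the filter, among them those of Gli1, Gli2 and Hhip, may not exceed background.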
